A study of Mus musculus with 14 samples.

Results

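Genomic imprinting was followed through 39 listed mouse genes, chosen by name because they are known to be expressed from 1 parental chromosome. Of these, 38 had a row among the 23174 rows of the deposited expression table, and Mirg had none. By the parental allele they are known to express, 16 of the 38 were maternally expressed and 22 were paternally expressed. They fall into 18 imprinted clusters, 8 of which are represented by 1 measured gene. The choice went by name and no measured value entered its rule, though earlier results of these data were known when it was made.

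The study asked, as its title puts it, whether the zinc finger transcription factor Zfp281 holds back embryonic stem cells (ESCs) from becoming extraembryonic endoderm (XEN) stem cells, which are the yolk sac lineage. Bulk polyA-selected RNA was measured in 14 libraries, all from feeder-free mouse cells of 129S1/SVImJ background (XENB1 is labelled 129S1). There were 4 ESC lines: wild-type WT3, KO3.34 and KO2.6, both labelled Zfp281 knockout, and Rescue3.34, a KO3.34 derivative that carries Zfp281 again. Each line gave 1 library as ESCs, 1 at passage 1 (cXENp1, after 24 hours in XEN medium and 48 hours of all-trans retinoic acid at 0.01 µM with activin A at 10 ng/mL) and 1 at passage 3 (cXENp3, on gelatin after a passage on inactivated fibroblast feeders). The established wild-type lines XENB1 and XEN5 gave 1 library each and are the endpoint. Each knockout is a single line whose title names a clone (for KO2.6 the cell line field gives another number), Rescue3.34 is a derivative of 1 of them, and nothing in the labels says that libraries of a group were repeat cultures. The p-values therefore measure spread among these lines and not between repeat cultures. In stage comparisons within the 4 lines it is how far the changes differ between lines. In comparisons of lines the 3 stages of a line stand in for replicates, and the lines themselves are not replicated. In tests of Zfp281 status it is the spread within pairs of lines, WT3 with Rescue3.34 and KO3.34 with KO2.6, taken over the 3 stages. The same pairs recur at each stage without a term for line, so those libraries are treated as independent though they are not. The description of 3 ESC libraries (WT3, KO3.34 and Rescue3.34) starts with JH and that of the other 11 with XH, so prefix and stage can be told apart in KO2.6 alone.

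Imprinted genes carry DNA methylation that was laid down in the egg or the sperm at control regions rich in CpG dinucleotides, and this mark decides which parental copy is transcribed. Many paternally expressed genes favour growth of the embryo and placenta and many maternally expressed genes restrain it, the best known pair being the growth factor Igf2 and its scavenger receptor Igf2r. In the early embryo the zinc finger protein Zfp57 with Trim28, and the maintenance methyltransferase Dnmt1, keep the marks while the rest of the genome is demethylated. Neither methylation nor allelic expression was measured here: every value is the summed output of both alleles, and several of the genes (Ube3a, Gnas, Cd81, Ascl2) are known to be imprinted only in certain tissues.

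Promoter windows of 4 members are shown because these genes carry the differences described below: Nnat and Meg3 differed by Zfp281 status, Peg3 was among the largest rises at passage 1, and Grb10 had the largest difference between the KO lines. Each window runs from 250 bases before to 50 bases after an annotated RefSeq start (build GRCm38.p6, where 31 of the 38 members had a window), 5′ to 3′ on the strand of the gene, with CpG dinucleotides in capitals. Where the table lists 2 starts, as for Meg3 and Grb10, the most upstream one is given. The expression table is on mm9, and its coordinates are not mixed with these.
Nnat: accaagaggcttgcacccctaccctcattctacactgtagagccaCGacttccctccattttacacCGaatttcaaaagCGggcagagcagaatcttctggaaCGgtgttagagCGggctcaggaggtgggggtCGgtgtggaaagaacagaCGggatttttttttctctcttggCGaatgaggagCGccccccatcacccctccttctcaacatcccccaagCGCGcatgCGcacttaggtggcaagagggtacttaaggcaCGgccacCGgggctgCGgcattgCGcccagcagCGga
Meg3: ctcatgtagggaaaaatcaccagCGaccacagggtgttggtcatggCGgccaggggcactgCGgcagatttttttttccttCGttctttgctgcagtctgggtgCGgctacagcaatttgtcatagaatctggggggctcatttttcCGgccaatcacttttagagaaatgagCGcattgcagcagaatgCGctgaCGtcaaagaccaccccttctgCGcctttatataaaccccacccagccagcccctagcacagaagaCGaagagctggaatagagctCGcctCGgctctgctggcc
Peg3: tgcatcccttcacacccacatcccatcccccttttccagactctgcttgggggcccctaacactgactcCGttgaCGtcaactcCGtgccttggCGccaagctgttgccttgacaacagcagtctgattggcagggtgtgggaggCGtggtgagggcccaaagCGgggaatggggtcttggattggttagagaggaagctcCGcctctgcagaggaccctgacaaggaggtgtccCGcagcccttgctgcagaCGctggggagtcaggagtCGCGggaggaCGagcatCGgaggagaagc
Grb10: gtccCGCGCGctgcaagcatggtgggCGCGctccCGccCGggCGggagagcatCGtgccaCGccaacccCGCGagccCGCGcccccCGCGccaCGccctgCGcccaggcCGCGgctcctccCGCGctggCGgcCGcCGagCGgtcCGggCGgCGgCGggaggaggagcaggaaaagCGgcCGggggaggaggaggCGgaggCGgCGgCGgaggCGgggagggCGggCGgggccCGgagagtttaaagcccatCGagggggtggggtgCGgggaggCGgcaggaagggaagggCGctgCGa

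These windows lie at chr2:157559828-157560127 on the plus strand (Nnat), chr12:109540746-109541045 on the plus strand (Meg3), chr7:6730370-6730669 on the minus strand (Peg3) and chr11:12037371-12037670 on the minus strand (Grb10). They hold 17 CpG dinucleotides in Nnat, 13 in Meg3, 13 in Peg3 and 45 in Grb10, against a median of 17.0 over the 45 windows of members and 7.0 over all 32817 windows. The letters CCCCTCCCC, a core of the known Zfp281 motif, were searched on both strands: they were present in 4 of the 45 windows (8.89%, in Igf2, Magel2 and Mest) and in 6.37% of all windows. The letters GGGGCCCC, known to be bound by the zinc finger protein of the imprinted gene Plagl1, read the same on both strands. They were present in the windows of Peg3, Usp29 and Rasgrf1 (6.67% of windows of members) and in 1.07% of all windows. Such matches are descriptions of letters and not binding sites.

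Values are FPKM as deposited, a number of fragments corrected for the length of the transcript and the size of the library, and the sequencing depth behind them is unknown. The FPKM sums of the 14 libraries ranged from 424406 to 718138, with 424406 to 520485 in the cXENp1 libraries, and 14972 to 16831 genes were above 0. The targeted gene had 25.1 to 38.6 FPKM in the 6 libraries of WT3 and Rescue3.34, 1.29 to 3.96 FPKM in the KO3.34 libraries, 0 to 0.559 FPKM in those of KO2.6, and 10.6 and 12.5 FPKM in the XEN lines. Summed FPKM of 5 ESC markers was 2116 to 2577 in the ESC libraries, 58.8 to 105 at cXENp1 and at most 13.1 in the XEN lines. At cXENp3 WT3 and Rescue3.34 had sums of 2654 and 1631, and the KO lines had 328 (KO3.34) and 65.9 (KO2.6). The sum of 7 XEN markers was 928 and 1143 in the KO lines at cXENp3 and 5.08 and 13.3 in WT3 and Rescue3.34, so the cXENp3 libraries of the latter, though labelled as chemically induced XEN cells, had high ESC markers and low XEN markers, while their ESC markers were low at cXENp1. Of 8 fibroblast markers, 7 were highest of the 12 course libraries in Rescue3.34 at cXENp3 (summed 1240 FPKM, against 33.8 to 354 in the other cXENp3 libraries), and 7 of 8 were also at 1 FPKM or more in both XEN lines. The sum of 5 trophoblast markers was at most 11.8 FPKM in any library. In bulk RNA, fewer cells that express a gene and less RNA of it per cell cannot be told apart.

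Most members were transcribed at every stage. At 1 FPKM or more in all 14 libraries were 23 of the 38, and 11 passed 100 FPKM in at least 1 library. Only Kcnq1ot1, the antisense RNA of the Kcnq1 cluster, Magel2, a MAGE-family gene, and Rasgrf1, a Ras exchange factor, stayed under 1 FPKM throughout; they entered no test, and Usp29 and Zim1 were too low to be tested between XEN lines and ESCs. Among the 4 lines the mean was highest at cXENp1 for 18 members, at cXENp3 for 11 and in ESCs for 9. Summed over members, the 4 lines had 956 to 1134 FPKM as ESCs and 2187 to 3049 FPKM at cXENp1. At cXENp3 the sum was 1055 FPKM in WT3 and 1498 to 1985 FPKM in the other lines. The placental retrotransposon-derived gene Peg10 and the hydrolase-like gene Mest made up 35.7% to 51.5% of the sum over members in the cXENp1 libraries and 2.41% to 17.0% in the ESC libraries.

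**Figure D1:**
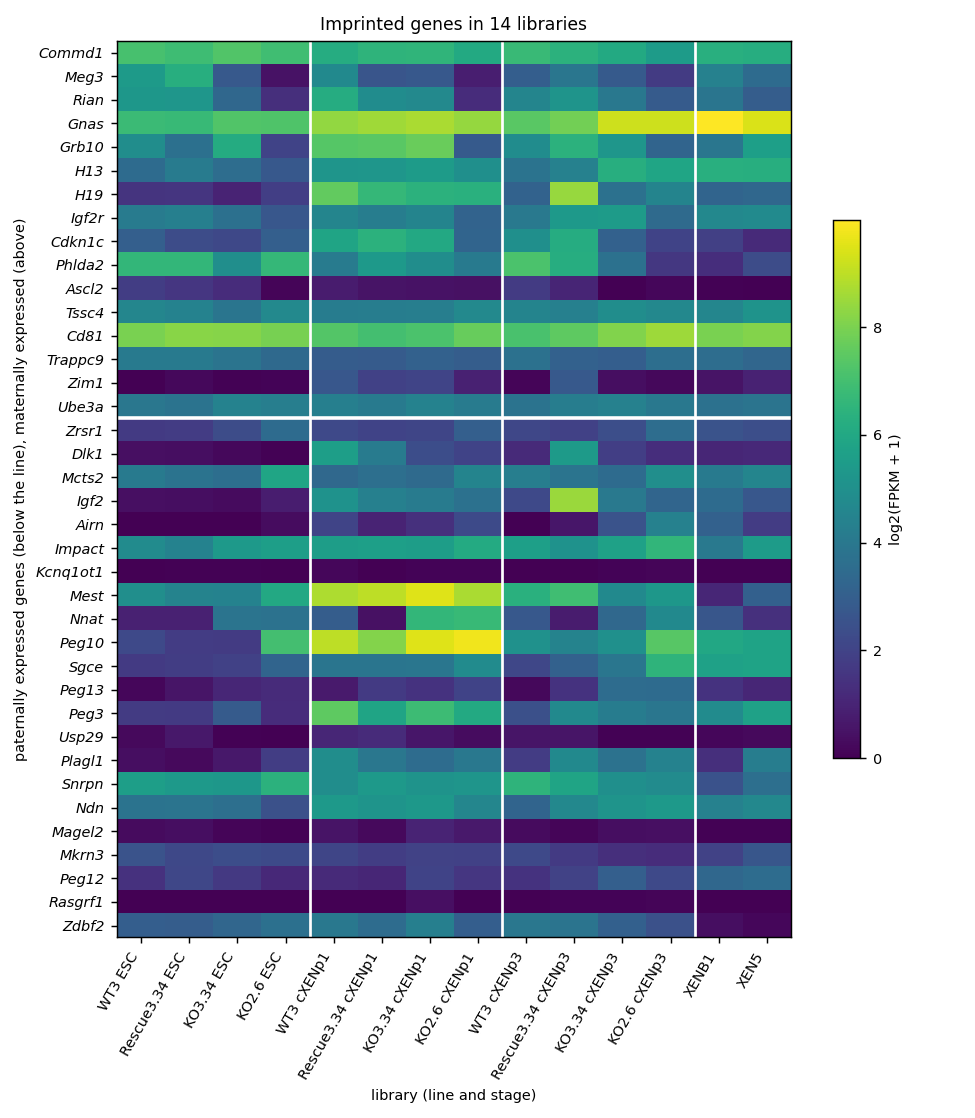
Level of the 38 imprinted genes (rows) in 14 libraries (columns, by stage and line), as log2(FPKM + 1) on a colour scale. Maternally expressed genes are above the white line and paternally expressed genes below it; Peg10 and Mest are brightest in the cXENp1 block, where Peg10 reached 277 to 868 FPKM.

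The endpoint was examined first: 15 of 33 tested members differed between the XEN lines and the 4 ESC libraries. A call here and below is an adjusted p under 0.05 from limma, with Benjamini-Hochberg adjustment over all genes tested, on log2(FPKM + 1). Of these, 9 were higher in XEN lines (27.3% of those tested, against 22.2% of all genes) and 6 were lower (18.2%, against 19.7% of all genes), so the share of members called was near that of the table. Dlk1, Igf2 and Airn, among those higher, were under 1 FPKM in every ESC library. They passed the filter on low values through the XEN libraries alone, so a call of the other sign was hardly open to them. The median change over members was 0.21 on the log2 scale, and -0.02 over all genes. In each of the 15 the XEN libraries lay outside the range of the ESC libraries, as in 99.7% of all called genes and 59.2% of all genes tested. Leaving out 1 ESC library gave 14 to 18 calls, and 4102 to 6235 over all genes against 5181 with all libraries. Leaving out a XEN line left 1 library in that group, and fewer members and fewer genes were then called.

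Gnas, which encodes the stimulatory G protein alpha subunit in a locus with several imprinted transcripts, was the most abundant member in XEN cells. It had 111, 105, 154 and 151 FPKM in ESCs (WT3, Rescue3.34, KO3.34 and KO2.6, the order used throughout for the 4 lines) and 1014 and 685 FPKM in XENB1 and XEN5. Both XEN libraries were above every course library, and the log2 change was 2.69 (SE 0.26, adjusted p = 0.000191). H13, the signal peptide peptidase, had 10.2, 16.7, 10.9 and 5.66 FPKM in ESCs and 77.8 and 75.6 FPKM in the XEN lines (log2 change 2.80, SE 0.36, adjusted p = 0.000795). Sgce, epsilon-sarcoglycan, rose from 2.21, 2.47, 2.82 and 8.34 FPKM to 52.2 and 55.2 FPKM (log2 change 3.61, SE 0.44, adjusted p = 0.000592). The zinc finger gene Peg3 rose from at most 6.38 FPKM in ESCs to 26.9 and 52.2 FPKM (log2 change 3.37, SE 0.48, adjusted p = 0.00114). Smaller absolute levels stood behind the rises of Airn, the antisense RNA of Igf2r (listed at 0 in 3 of 4 ESC libraries, 7.61 and 2.44 FPKM in XEN lines), Igf2 (at most 0.749 FPKM, then 10.4 and 5.64), the growth-restraining RNA H19 (at most 2.58, then 8.27 and 9.10), Peg12, which encodes a Gsk3-binding protein (at most 3.37, then 9.23 and 10.5), and the transmembrane Notch-family gene Dlk1 (at most 0.314, then 1.09 and 1.22).

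Genes lower in XEN lines included both parental classes. Phlda2, a maternally expressed brake on placental growth, had 98.2, 98.1, 29.6 and 100 FPKM in ESCs and 1.51 and 3.99 FPKM in XENB1 and XEN5, which did not overlap (log2 change -4.39, SE 0.54, adjusted p = 0.000602). Zdbf2, a zinc finger gene, fell from 6.90, 6.63, 8.79 and 11.7 FPKM to 0.304 and 0.134 FPKM (log2 change -2.94, SE 0.29, adjusted p = 0.000241). Snrpn, which encodes a spliceosomal Sm protein at the Prader-Willi/Angelman locus, fell from 37.7 to 84.3 FPKM in ESCs to 4.69 and 11.6 FPKM (log2 change -2.60, SE 0.41, adjusted p = 0.00199). Mest fell from 20.7 to 63.9 FPKM to 1.11 and 7.43 FPKM, and was not called without XENB1 (adjusted p = 0.0714). Commd1, a regulator of copper and NF-kB pathways, and Cdkn1c, an inhibitor of cyclin-dependent kinases, had the smallest declines (log2 changes -0.78 and -1.09), and neither was called when each library was rescaled to 1 sum (adjusted p = 0.0524 and 0.0762).

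At passage 1 a larger share of the imprinted genes than of all genes rose. Of 35 tested members, 17 were higher at cXENp1 than in ESCs (48.6%, against 14.7% of all genes) and 3 were lower (8.57%, against 13.8%). Usp29 and Zim1, among the 17, passed the filter on low values only because of their cXENp1 libraries. Their rises are therefore no independent part of that share. All 11 called paternally expressed genes rose (of 19 tested), and among 16 maternally expressed genes 6 rose and 3 fell. The median log2 change was 1.60 over paternally expressed, 0.27 over maternally expressed and 0.00 over all genes. Of the 20, 19 moved in the same direction in all 4 lines (Nnat did not), and all 20 did so in KO2.6, where both stages carry the XH prefix. All 4 lines were in the fit that made the calls, so this agreement is partly set by the selection and does not test the prefix. The share of all called genes with it is not given here. For 16 of the 20 the libraries of the stages did not overlap, and 85.6% of all called genes did not. The other 4 were Grb10, Impact, Nnat and Usp29. Rescaling each library to 1 sum moved the median of all genes up by 0.43: then 17 of the 20 were still called and the 3 declines were not, and 51.4% of members were higher against 30.4% of all genes. Without WT3, Rescue3.34 or KO3.34 the count was 11, 9 or 6, all of them higher, and without the block for line it was 13. Over all genes these fits called 2161, 1244, 1285 and 3383, against 3760 with all lines and the block.

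Peg10 showed the largest rise. Its ESC levels were 3.56, 2.44, 2.32 and 129 FPKM, and its cXENp1 levels were 512, 277, 725 and 868 FPKM. KO2.6 stood apart as ESCs and still had the highest value at cXENp1 (log2 change 5.92, SE 0.63, adjusted p = 0.000479). Peg3 went from 2.31, 2.24, 6.38 and 1.42 FPKM to 179, 55.3, 115 and 66.8 FPKM, with every cXENp1 library above every ESC library (log2 change 4.67, SE 0.52, adjusted p = 0.000554). Mest rose from 29.6, 21.1, 20.7 and 63.9 FPKM to 433, 504, 714 and 421 FPKM (log2 change 4.02, SE 0.49, adjusted p = 0.000839). Each of the 4 lines rose in all 3 of these paternally expressed genes.

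The H19-Igf2 pair, which shares enhancers and is expressed from opposite alleles, rose on both sides. H19 had 1.86, 1.90, 0.983 and 2.58 FPKM in ESCs and 194, 100, 83.6 and 80.0 FPKM at cXENp1 (log2 change 5.28, SE 0.83, adjusted p = 0.00248). Igf2 had 0.343, 0.294, 0.239 and 0.749 FPKM, then 32.8, 19.3, 17.0 and 12.1 FPKM (log2 change 3.85, SE 0.96, adjusted p = 0.0176). Plagl1, a zinc finger transcription factor, went from 0.281, 0.204, 0.573 and 2.502 FPKM to 29.0, 14.7, 10.5 and 14.9 FPKM (log2 change 3.33, SE 0.58, adjusted p = 0.00413). None of these 3 genes had overlapping stages. WT3 was the highest of the lines at cXENp1 in each of them.

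**Figure D2:**
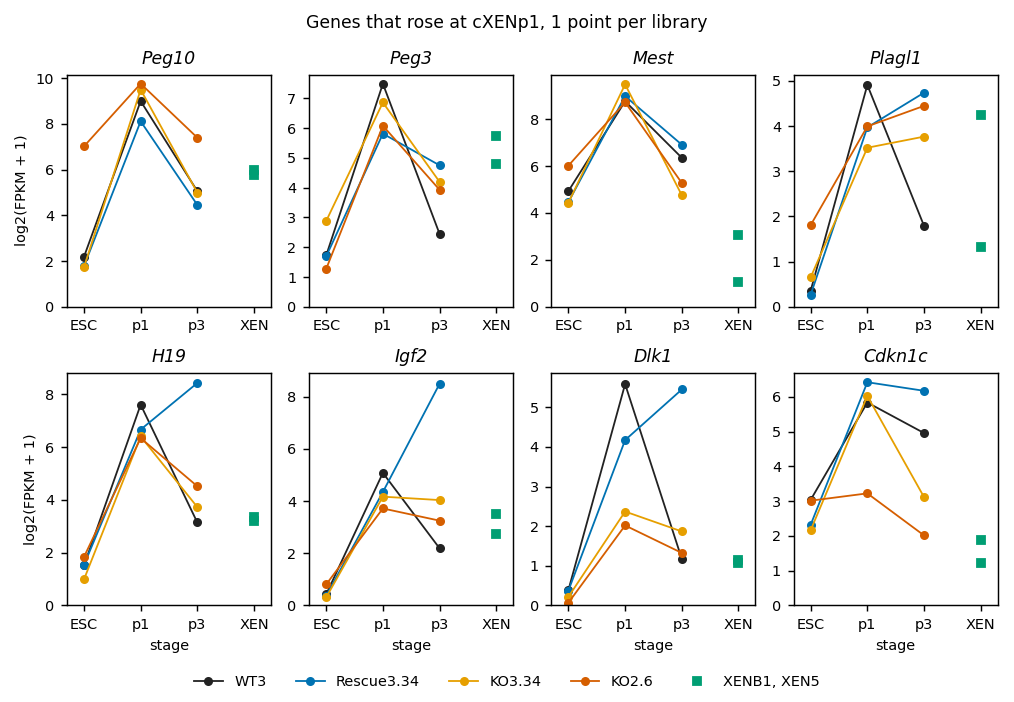
Level of 8 members that rose at cXENp1, as log2(FPKM + 1), in ESCs, at cXENp1 (p1), at cXENp3 (p3) and in XEN lines; each point is 1 library and lines join the libraries of a cell line. Each gene rises at p1 in all 4 lines, though Cdkn1c in KO2.6 only from 7.08 to 8.34 FPKM. Rescue3.34 alone is high at p3 for H19 (344 FPKM), Igf2 (358 FPKM) and Dlk1 (42.7 FPKM).

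Dlk1 and Cdkn1c rose unevenly among lines. Dlk1 had at most 0.314 FPKM in ESCs and 47.0, 17.0, 4.17 and 3.05 FPKM at cXENp1 (log2 change 3.27, SE 0.81, adjusted p = 0.0166), with both KO lines below WT3 and Rescue3.34. That difference was not called (log2 difference -2.68, SE 1.04, adjusted p = 0.367). Cdkn1c had 7.21, 3.996, 3.48 and 7.08 FPKM in ESCs and 56.2, 84.7, 64.2 and 8.34 FPKM at cXENp1 (log2 change 2.74, SE 0.68, adjusted p = 0.0175). KO2.6 was the exception there, with almost the level it had as ESCs.

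Grb10, an adaptor that dampens insulin signalling, went from 29.2, 11.8, 70.0 and 3.05 FPKM to 161, 171, 206 and 6.12 FPKM (log2 change 2.13, SE 0.57, adjusted p = 0.023). Its 3 high lines did not overlap between stages, and KO2.6 stayed below every library of the other lines. The further rises were those of Gnas, Sgce, H13, the zinc finger gene Zim1 next to Peg3, the MAGE-family gene Ndn, the translation regulator Impact, the deubiquitinase-family gene Usp29 and the small membrane protein gene Nnat, with log2 changes from 0.57 (Usp29) to 1.96 (Sgce). Trappc9, a subunit of a vesicle tethering complex, Commd1 and the tetraspanin gene Cd81 had log2 changes of -0.91, -0.72 and -0.78, and all 3 calls were absent after rescaling to 1 sum (log2 changes -0.42, -0.19 and -0.25).

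From passage 1 to passage 3 only 3 of 35 members were called, all lower (8.57%, against 7.45% of all genes called in either direction). They were the 3 most raised paternally expressed genes. Mest fell to 80.8, 119, 26.1 and 37.8 FPKM (log2 change -3.16, SE 0.49, adjusted p = 0.00641). Peg10 fell to 32.4, 21.0, 30.9 and 168 FPKM (log2 change -3.62, SE 0.63, adjusted p = 0.0107). Peg3 fell to 4.47, 26.0, 17.3 and 14.3 FPKM (log2 change -2.73, SE 0.52, adjusted p = 0.0145). In all 3, every line fell and no cXENp3 library reached the lowest cXENp1 library (81.5% of all called genes did not overlap). Without KO3.34 none of the 3 was called, and without the Rescue3.34 library at cXENp3 5 members were. Over all genes these fits called 123 and 635, against 983 with all libraries.

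Measured against ESCs, 7 of 35 members were called at cXENp3. Plagl1, Gnas, H19, Igf2, Sgce and Peg3 were higher (17.1%, against 5.34% of all genes) and Commd1 was lower (2.86%, against 4% of all genes). All 7 moved in the same direction in every line, which is partly set by the selection because these lines were in the fit. For 4 of them the libraries of the stages did not overlap, and 64.2% of all called genes did not. The other 3 were Peg3, Plagl1 and Sgce. The calls rested on few libraries, and so did those over all genes, of which 1233 were called. Without the Rescue3.34 library at cXENp3, 2 members and 129 genes were called. Without the line Rescue3.34 it was 0 members and 1 gene, and without KO3.34 it was 0 and 0. Without KO2.6 it was 1 member and 305 genes, and without WT3 it was 13 and 2596. With no filter on low values it was 0 members and 460 genes. 

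The Rescue3.34 library stood apart at passage 3 for 4 members, chosen after their values were seen. Igf2 had 3.56, 358, 15.4 and 8.50 FPKM at cXENp3, so that Rescue3.34 was 23.2 times the next line. H19 had 7.83, 344, 12.2 and 21.9 FPKM, a ratio of 15.7 to the next line. Dlk1 had 1.26, 42.7, 2.65 and 1.51 FPKM, and Zim1 had 0.107, 5.88, 0.286 and 0.151 FPKM, with ratios of 16.1 and 20.6. The ratio was 2.37 for Cdkn1c and 1.23 for Plagl1. Fibroblast markers were highest in the same library (summed 1240 FPKM, 8 of 8 at 1 FPKM or more), and their part in these 4 values was not tested. Of the 4 genes, H19 and Igf2 were called higher at cXENp3 than in ESCs and Dlk1 and Zim1 were not. Without that library the 2 were still called, with log2 changes of 2.32 for H19 (adjusted p = 0.0476) and 2.66 for Igf2 (adjusted p = 0.0498), against 3.48 and 4.01 with it.

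Lines were compared with stage as a block. No member was called over the 4 lines together (59 genes or 0.447% of all genes were). At an unadjusted p under 0.05 there were 13 members and 2006 genes. Rian, a snoRNA host RNA (adjusted p = 0.0502), and Nnat (adjusted p = 0.0503) lay just outside the threshold, and both were called with a pseudocount of 0.1 and with a filter of a mean of at least 5 FPKM. The widest spread between lines was that of Nnat, 4.37 on the log2 scale, followed by Grb10 (3.68), Rian (3.53), Meg3 (3.37) and Peg10 (3.28). The median spread was 1.17 over members and 0.54 over all genes.

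Nnat, which encodes the proteolipid neuronatin and lies within an intron of Blcap, was higher in both KO lines at every stage. In ESCs it had 0.897, 0.875, 13.5 and 12.5 FPKM. At cXENp1 it had 6.75, 0.354, 96.6 and 106 FPKM, and at cXENp3 5.81, 0.693, 9.51 and 25.5 FPKM. KO libraries did not overlap those with Zfp281 at any of the 3 stages. The same held for 53.2%, 47.7% and 72.9% of all genes tested, each stage taken alone. The difference was called at cXENp1 (log2 difference 4.98, SE 0.80, adjusted p = 0.038) and at cXENp3 (2.30, SE 0.80, adjusted p = 0.043), and not in ESCs (2.89, SE 0.80, adjusted p = 0.0861). At cXENp3 it was also absent with quantile normalization (adjusted p = 0.0604). Both calls were absent with a pseudocount of 0.1 (adjusted p = 0.104 and 0.0693), with no filter on low values (0.0521 and 0.0839), and without KO2.6 (0.189 and 0.291), KO3.34 (0.0539 and 0.0634) or Rescue3.34 (0.178 and 0.115). Without Rescue3.34 the log2 differences were 3.72 and 1.29. The direct comparison of Rescue3.34 with its parent KO3.34 gave a log2 difference of -3.92 (SE 0.69, adjusted p = 0.125), lower at each stage. That comparison called no member, 8 genes in all (0.0606%), and at an unadjusted p under 0.05 it held 2 members and 1030 genes. The XEN lines had 5.32 and 1.61 FPKM of Nnat, below both KO lines at each stage.

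**Figure D3:**
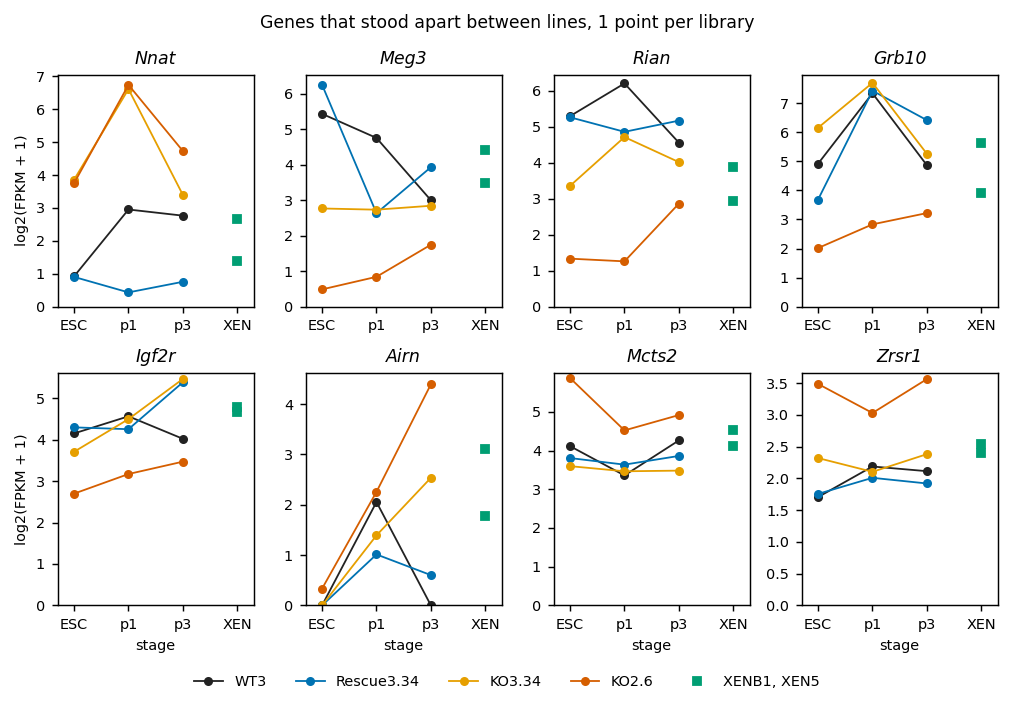
Level of 8 members by line, as log2(FPKM + 1), in ESCs, at cXENp1 (p1), at cXENp3 (p3) and in XEN lines; each point is 1 library. Nnat is higher in both KO lines than in WT3 and Rescue3.34 at each stage, while Meg3, Rian, Grb10 and Igf2r are lowest and Airn, Mcts2 and Zrsr1 highest in KO2.6.

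The noncoding RNAs of the Dlk1-Meg3 cluster were low in KO lines as ESCs. Meg3, known for being silenced in some mouse pluripotent stem cell lines, had 42.3, 75.4, 5.82 and 0.405 FPKM in ESCs. The KO lines did not overlap WT3 and Rescue3.34 (log2 difference -4.22, SE 0.92, adjusted p = 0.0499), and KO3.34 was low within the libraries of prefix JH. It was the single member called in ESCs (2.86%, against 1.97% of all genes). The call sat at the threshold: it was absent under every alternative run except a mean of at least 5 FPKM and leaving out KO3.34, with adjusted p from 0.0525 to 0.674 where it was absent.

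Rian, transcribed downstream of Meg3, had 38.1, 37.3, 9.23 and 1.52 FPKM in ESCs, 72.4, 27.9, 25.2 and 1.40 FPKM at cXENp1, and 22.5, 34.9, 15.2 and 6.28 FPKM at cXENp3. KO lines were below both others at all 3 stages, with no call at any (log2 difference in ESCs -2.93, SE 1.00, adjusted p = 0.138). Meg3 at the later stages had 26.0, 5.22, 5.66 and 0.796 FPKM and then 7.005, 14.3, 6.19 and 2.36 FPKM, and the lines with and without Zfp281 overlapped at cXENp1. Rescue3.34 had Meg3 above KO3.34 in ESCs and at cXENp3 but not at cXENp1, and over stages the difference was not called (log2 difference 1.49, SE 0.79, adjusted p = 0.705). Dlk1, on the paternal allele of the cluster, had at most 0.314 FPKM in any ESC library. Besides Nnat and Rian, Sgce was higher and Ascl2 and Usp29 were lower in both KO lines at all 3 stages. Ascl2 and Usp29 were low throughout, at most 2.52 and 1.37 FPKM in any library. Of all genes tested, 53.2% in ESCs, 47.7% at cXENp1 and 72.9% at cXENp3 did not overlap by Zfp281 status. The share apart at all 3 stages together is not given here.

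KO2.6 was at an end of the range of the lines at every stage for 11 members. It was the lowest of the 4 lines at all 3 stages for 4 of 16 maternally expressed members (Meg3, Rian, Igf2r and Grb10) and the highest for none. It was the highest at all 3 stages for 6 of 22 paternally expressed members (Airn, Peg10, Sgce, Impact, Zrsr1 and Mcts2) and the lowest for 1, Usp29. Over all genes tested, KO2.6 was lowest at all 3 stages for 7.88% and highest for 7.03%, more than any other line (at most 1.96% and 2.25%). The same count over members gave, for KO3.34, 2 maternally expressed genes highest. For WT3 it gave 1 maternally and 1 paternally expressed gene highest and 2 paternally expressed genes lowest, and for Rescue3.34 1 paternally expressed gene at each end. These counts were made after the values were seen and are descriptions.

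The test of KO2.6 against KO3.34 called no member and 4 genes in all (0.0303%). At an unadjusted p under 0.05 there were 8 members: Grb10, Igf2r and Rian, all maternally expressed and lower in KO2.6, and Mcts2, Zrsr1, Peg10, Sgce and Impact, all paternally expressed and higher. Over all genes, 782 (5.93%) met that limit, 308 higher and 474 lower. The median log2 difference was -0.41 over maternally expressed members, 0.36 over paternally expressed members and -0.04 over all genes. The largest differences were Grb10 at -3.68 (SE 0.66), Peg10 at 2.65 (SE 0.73) and Rian at -2.21 (SE 0.53), with adjusted p of 0.274, 0.57 and 0.484. XEN markers were higher in KO2.6 than in the other lines as ESCs (summed 46.7 FPKM against at most 5.69) and at cXENp1 (370 against at most 47.9), and their part in these differences was not tested.

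Genes of shared loci were compared within KO2.6. Igf2r, the receptor that clears Igf2, had 16.7, 18.6, 12.1 and 5.48 FPKM in ESCs, while its paternal antisense RNA Airn was listed at 0 in 3 lines and had 0.260 FPKM in KO2.6. At cXENp3 Igf2r had 15.2, 40.8, 43.2 and 10.1 FPKM and Airn 0, 0.518, 4.80 and 20.0 FPKM. Mcts2, a retrogene in an intron of H13, had 16.3, 12.99, 11.1 and 57.6 FPKM in ESCs, and H13 had 10.2, 16.7, 10.9 and 5.66 FPKM, so KO2.6 was highest for one and lowest for the other, as at cXENp1. At cXENp3 it was highest for Mcts2 (29.2 FPKM) but not lowest for H13 (56.9 FPKM). Zrsr1, a splicing-factor retrogene in an intron of Commd1, had 2.26, 2.38, 3.997 and 10.2 FPKM in ESCs and stayed highest in KO2.6, at 7.17 and 10.8 FPKM. Commd1 in KO2.6 was within the range of the other lines as ESCs (119 FPKM) and lowest at cXENp1 and cXENp3 (66.0 and 44.1 FPKM). Each of these pairs, like Peg13 with Trappc9, has overlapping rows in the table. Whether counting used strand is not given in the sources used here, so their reads may not be fully separated. The same limit holds for other members. In all, 18 share their coordinates with another row, among them Mest, Nnat, Peg3, Gnas, Igf2 and Rian.

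Zfp281 status was then compared within each stage (KO3.34 and KO2.6 against WT3 and Rescue3.34). Beside Meg3 in ESCs and Nnat at cXENp1 (1 of 35 members, 2.86%, against 0.485% of all genes), the calls fell at cXENp3. There, 8 of 35 members were higher in KO lines (22.9%, equal to the 22.9% of all genes) and 7 were lower (20%, against 19%). With all lines fitted, members were thus called about as often as genes of the table at that stage. In all 15 the KO libraries did not overlap the others, as in 100% of all called genes and 72.9% of all genes tested. ESC and XEN marker sums differed between these libraries in the way given above. Without WT3 or without Rescue3.34, 1 Zfp281-present library was left per stage, and fewer members and fewer genes of the table were called. The shares of members and of all genes were therefore not compared in those fits.

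Higher in KO lines at cXENp3 were Gnas, Peg13, H13, Airn, Cd81, Sgce, Nnat and Ndn. Gnas had 173, 231, 604 and 597 FPKM, and the 2 KO libraries were almost level (log2 difference 1.58, SE 0.20, adjusted p = 0.000499). H13 had 13.1, 19.9, 75.0 and 56.9 FPKM, the KO lines lying near the XEN lines (log2 difference 1.95, SE 0.35, adjusted p = 0.00214). Peg13, a noncoding RNA inside Trappc9, had 0.174, 1.76, 10.4 and 10.3 FPKM (log2 difference 2.66, SE 0.43, adjusted p = 0.00144). Its levels in the XEN lines, 1.74 and 1.10 FPKM, were below both KO lines. Sgce had 3.41, 7.57, 14.04 and 90.2 FPKM, and the higher of the KO lines passed both XEN lines (log2 difference 2.59, SE 0.74, adjusted p = 0.0188). Airn (3.16), Cd81 (0.99) and Ndn (1.33) completed the group with these log2 differences.

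Lower in KO lines at cXENp3 were Phlda2, Cdkn1c, Snrpn, Ascl2, Mest, Commd1 and Zdbf2. Phlda2 had 142, 73.4, 12.4 and 2.07 FPKM (log2 difference -4.01, SE 0.74, adjusted p = 0.00272), and KO2.6 lay between the XEN lines. Cdkn1c had 30.1, 71.2, 7.68 and 3.04 FPKM (log2 difference -3.00, SE 0.80, adjusted p = 0.0142). Ascl2, a trophoblast transcription factor gene of the same cluster, had 2.32, 1.07, 0 and 0.144 FPKM (log2 difference -1.29, SE 0.36, adjusted p = 0.0178). The other 2 tested genes of the Kcnq1 cluster did not follow: Cd81 was higher and Tssc4 was not called. Snrpn had 88.1, 56.7, 30.5 and 27.3 FPKM (log2 difference -1.26, SE 0.35, adjusted p = 0.0169), while Ndn of the same Prader-Willi/Angelman cluster was higher, at 8.29, 24.3, 34.7 and 40.4 FPKM. The Ndn call was absent with a pseudocount of 0.1 (adjusted p = 0.0518) and with eBayes without trend (0.0527). It was also absent with quantile normalization (0.0779) and with no filter on low values (0.0872). Without WT3 the log2 differences were -0.95 for Snrpn and 0.60 for Ndn. Without the Rescue3.34 library at cXENp3, Cdkn1c, Mest, Zdbf2 and Nnat were not called (adjusted p = 0.0789, 0.0978, 0.0906 and 0.26).

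Whether the Zfp281 difference changed between ESCs and cXENp3 was tested as an interaction. It was called for 5 of 35 members (14.3%, against 22.6% of all genes), a smaller share than in the table. The difference moved up by 2.61 for H13 (SE 0.49, adjusted p = 0.00822), 1.09 for Gnas (SE 0.29, adjusted p = 0.0261) and 3.00 for Airn (SE 0.81, adjusted p = 0.028) on the log2 scale. It moved down for Mest (-2.14, SE 0.66, adjusted p = 0.044) and Snrpn (-1.59, SE 0.50, adjusted p = 0.0452). With the line as a block, since each line gave a library at both stages, H13, Gnas and Airn were still called and Mest (adjusted p = 0.0543) and Snrpn (adjusted p = 0.052) were not. Peg13 (1.88, adjusted p = 0.0161) and Ndn (2.09, adjusted p = 0.0439) were then called too, so that 5 members moved up and 0 moved down. H13 was lower in KO2.6 than in any other line as ESCs and higher in both KO lines at cXENp3. For Nnat and Meg3 the interaction was not called, at adjusted p over 0.05 (Meg3 3.05, SE 1.29, adjusted p = 0.113). Without WT3 or without Rescue3.34 none of the 5 was called, without KO2.6 2 were, and without KO3.34 12 members were.

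The changes at the endpoint and those by Zfp281 status at cXENp3 compare separate libraries and can be set side by side. The spread behind the second was estimated over all 12 course libraries, so both sets of calls drew on the ESC libraries. Of the 15 members called in each, 10 were called in both, which is 66.7% of either list, and all 10 had the same sign: Gnas, Sgce, H13 and Airn higher, and Phlda2, Snrpn, Mest, Commd1, Zdbf2 and Cdkn1c lower. Over all genes 3489 were called in both, 67.3% of the XEN list and 63.1% of the KO list, of which 3455 had the same sign, so members shared calls about as often as the table. The 5 members called in XEN lines alone were Dlk1, H19, Igf2, Peg12 and Peg3, and the 5 called by Zfp281 status alone were Ascl2, Cd81, Ndn, Nnat and Peg13.

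**Figure D4:**
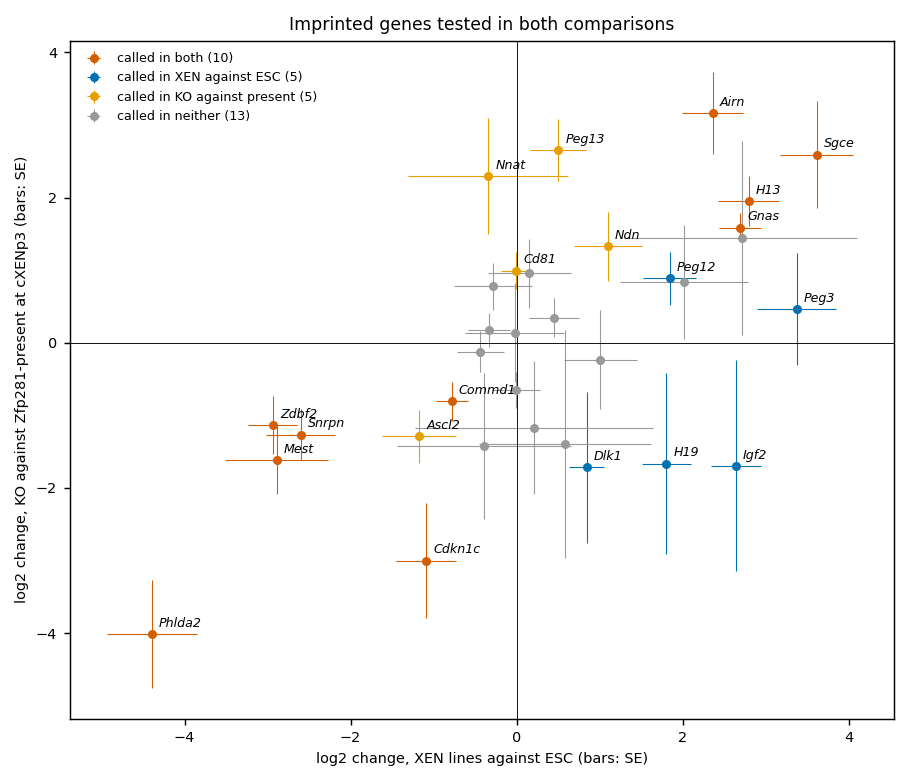
Log2 change of 33 imprinted genes tested in both comparisons, XEN lines against ESCs (x axis) and KO against Zfp281-present lines at cXENp3 (y axis); bars are standard errors and colours show where a gene was called. The 10 genes called in both lie in the lower left and upper right of the plot, from Phlda2 (-4.39, -4.01) to Sgce (3.61, 2.59).

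Of the 35 members tested, 28 were called at least once in the 11 comparisons. The share of all genes called at least once is not given here, so 28 is no trait of members. By Zfp281 status at cXENp3 alone, 5528 of 13191 genes were called. The 7 never called were Igf2r, Mcts2, Rian, Zrsr1, Mkrn3, Tssc4 and Ube3a. The levels of the first 4 by line are given above, with no call. Ube3a, the Angelman syndrome ubiquitin ligase, had 12.2 to 20.8 FPKM over all 14 libraries, the narrowest range of these 7 in ratio. Tssc4 had 13.9 to 34.4 FPKM, and Mkrn3, a ring-finger ubiquitin ligase gene, had 1.40 to 5.40 FPKM. Within the Prader-Willi/Angelman cluster, members thus differed in course: Snrpn fell in XEN lines, Ndn rose at cXENp1, Peg12 rose in XEN lines, and Ube3a and Mkrn3 had no call.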

How the data were processed

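PolyA RNA of 14 libraries had been sequenced with paired reads on a HiSeq4000, per the labels' protocols. The submitters' processing notes name STAR 2.5.3, Cufflinks 2.1.1 and genome build mm9, with no roles stated here; the annotation and strand setting are not given in the sources used here. The values are FPKM that the authors deposited in 1 table of 23174 rows, and all 14 columns were used (0 other columns). The table holds no counts, so depth is unknown and no intervals or detection limits were computed; 259 rows repeat a symbol, and no pair of libraries was identical (0 pairs).

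The scale of analysis was log2(FPKM + 1), on which changes of low genes come out smaller. Genes at 1 FPKM or more in at least 2 fitted libraries were kept, which left 13191 genes (12372 for XEN lines against ESCs). Linear models were fitted over all of them with limma 3.58.1 in R 4.3.3 (lmFit, eBayes with trend), with Benjamini-Hochberg adjustment over all genes tested and a threshold of 0.05. Stage comparisons used 12 libraries with the line as a block, because libraries of 1 line share their cells; line comparisons used stage as a block; Zfp281 status used 6 groups of 2 libraries. The fits were tested on simulated data. All members, Zfp281 and the marker lists could be named. The members and lists were chosen with earlier results of these data known. Alternatives were a pseudocount of 0.1, other filters, quantile normalization, eBayes without trend, other blocks, the prefix as a term, and leaving out lines, stages or libraries. Rescaling to 1 sum, leaving out the Rescue3.34 library at cXENp3 and leaving out KO2.6 from comparisons of lines were chosen after seeing the data.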

Additional observations from a re-analysis of the deposited data

Results flagged for a closer look

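Among the 4 lines at each stage, 9 of 105 sets of values (35 members at 3 stages, on the log2 scale) held 1 line far from the other 3 (8.57%; chance flags about 1 in 20 such sets). KO2.6 was that line in 6 of them: as ESCs it was highest for Peg10 (129 FPKM), Sgce (8.34 FPKM) and Airn (0.260 FPKM) and lowest for Ndn (4.56 FPKM), and at cXENp1 it was highest for Sgce (26.9 FPKM) and lowest for Grb10 (6.12 FPKM). Rescue3.34 was far above the other lines at cXENp3 for Dlk1 (42.7 FPKM) and Zim1 (5.88 FPKM), in the library with the highest fibroblast markers. KO3.34 was lowest for Phlda2 as ESCs (29.6 FPKM).

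The difference between KO and Zfp281-present lines was not the same in ESCs and at cXENp3 for 5 members, by the interaction term of limma. On the log2 scale it moved by 3.00 for Airn, 2.61 for H13, 1.09 for Gnas, -2.14 for Mest and -1.59 for Snrpn; with the line as a block the last 2 were not called (adjusted p = 0.0543 and 0.052).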

How the results depend on the processing

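None of 78 results named for single members changed direction under the alternatives run; of their 918 values, 721 kept their side of the threshold, 190 lost the call and 7 gained one. With a mean of at least 5 FPKM, 9 members were called for XEN lines against ESCs (10 to 18 without 1 library), 2 between lines and 0 by Zfp281 status at cXENp1. Leaving out a line or stage gave 6 to 19 calls for cXENp1 against ESCs, 0 to 13 for cXENp3 against ESCs, 0 to 3 for cXENp3 against cXENp1, 0 to 3 between lines, 0 to 8, 0 to 3 and 7 to 19 by Zfp281 status in ESCs, at cXENp1 and at cXENp3, and 0 to 12 for the interaction. Without the line as replicate block the cXENp1 count was 13 (12 higher and 1 lower); no other count moved by over 1.5 times with or without a block, though the 5 interaction calls became 5 higher and 0 lower with the line as a block. With no filter on low values the count was 0 for cXENp3 against ESCs, 0 and 0 by Zfp281 status in ESCs and at cXENp1, and 2 for the interaction. With a pseudocount of 0.1 it was 2 between lines, and 0 and 0 by Zfp281 status in ESCs and at cXENp1. The single ESC call, Meg3, gave a count of 0 also with quantile normalization, without trend, with the prefix as a term, and after rescaling to 1 sum. Without the Rescue3.34 library at cXENp3 the counts were 2 for cXENp3 against ESCs, 5 for cXENp3 against cXENp1, 0 by Zfp281 status in ESCs and 2 at cXENp1. Fewer samples are fitted when a line is left out, and by Zfp281 status this left 1 library in a group. The counts over all genes moved in those fits too, so the moves are not particular to members. The cause of the other moves was not tested. With 1 library per line and stage and no counts, the precision of single values is unknown.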

Other observations

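Genes that act on imprints or on DNA methylation were described with a mixed list. It holds genes that keep imprints, such as Zfp57, and Dnmt3a, Dnmt3b and Dnmt3l, which act in new methylation. It also holds the methylcytosine oxidases Tet1, Tet2 and Tet3. Counts are over all 15 genes of this list. By Zfp281 status at cXENp3, 8 of them were lower in KO lines and 1 was higher (9 of 15 called; 19% of all genes were lower and 22.9% higher; median log2 difference -0.86 against 0.01 over all genes tested), in libraries whose ESC marker sums were 65.9 and 328 FPKM in KO lines and 1631 and 2654 FPKM in the others. Zfp57, the zinc finger protein that holds methylation at imprinted control regions, had 80.6, 77.6, 26.7 and 10.2 FPKM (WT3, Rescue3.34, KO3.34 and KO2.6; log2 difference -2.19, SE 0.41, adjusted p = 0.00302). In ESCs its order was the other way, with 45.9, 44.4, 84.4 and 172 FPKM, and the interaction of Zfp281 status with stage was called (-3.59, SE 0.59, adjusted p = 0.0055). Trim28, its corepressor, had 719, 552, 293 and 130 FPKM at cXENp3 (log2 difference -1.69, SE 0.42, adjusted p = 0.011). The methylcytosine oxidases moved apart: Tet1 (-2.23) and Tet2 (-1.46) were lower and Tet3 was higher (2.39, SE 0.26, adjusted p = 0.000241). Dnmt1, Dnmt3a, Uhrf1 and Ctcf were the other genes lower in KO lines.

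In XEN lines against ESCs 8 of the 15 were lower and 1 was higher (19.7% and 22.2% of all genes), with Dnmt3l, the cofactor of the new-methylation enzymes, at 34.6, 32.7, 2.90 and 105 FPKM in ESCs and 0.0691 and 0.245 FPKM in XENB1 and XEN5 (log2 change -4.52, SE 1.09, adjusted p = 0.0124). Tet3 was again the gene that was higher (2.29, SE 0.26, adjusted p = 0.000432).

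A second list held 37 further imprinted genes, 36 with a row and 22 tested in XEN lines against ESCs, where 6 were higher and 6 lower (22.2% and 19.7% of all genes). Sfmbt2, a polycomb gene, had at most 0.346 FPKM in ESCs and 1.78 FPKM at most in the course, and 24.7 and 18.8 FPKM in the XEN lines (log2 change 4.17, SE 0.24, adjusted p = 2.15e-05). Slc38a4, an amino acid transporter gene, had 90.9, 75.5, 118 and 13.98 FPKM in ESCs and 0.183 and 0.165 FPKM in the XEN lines (log2 change -5.66, SE 0.75, adjusted p = 0.000845). At cXENp3 it had 76.4, 83.9, 9.64 and 1.78 FPKM, lower in KO lines (log2 difference -3.90, SE 0.90, adjusted p = 0.00752).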
